A study of Mus musculus with 6 samples.

Results

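The miRNAs miR-34 and miR-449 form a family of small regulatory RNAs, of which the tumour suppressor p53 is known to switch on the miR-34 branch. Its 7 members on the array were taken by name, with probe version suffixes removed, out of 611 mouse microRNAs (miRNAs): mmu-miR-34a, mmu-miR-34b-5p, mmu-miR-34b-3p, mmu-miR-34c, mmu-miR-449a, mmu-miR-449b and mmu-miR-449c. Of these, 4 (miR-34a, miR-34b-5p, miR-34c and miR-449a) were bright enough to be tested, among 84 tested miRNAs. The cells were MCT, 1 mouse renal tubular line of SJL H-2S origin, grown in 10% fetal calf serum and then held in 0.5% serum. Transforming growth factor beta (TGFβ) was given at 3 ng/ml for 72 hours before 3 of the 6 one-colour arrays, and the other 3 carried RNA of untreated control cells. The samples therefore describe 1 line in culture, and nothing in the labels says that replicates were separate cultures, so a p-value here reflects only how far these samples scatter, and that scatter could be technical.

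A miRNA loads into an Argonaute protein and pairs, mainly through its seed, with messenger RNAs, which are then repressed. p53 binds upstream of the gene of miR-34a and of the shared gene of miR-34b and miR-34c, and the mature miRNAs repress cyclin-dependent kinases, MET, BCL2 and SIRT1, which slows the cell cycle and favours senescence or death. The miR-449 miRNAs carry a seed of the same kind, are driven by E2F1, and are best known from multiciliated epithelia. In kidney tubule cells p53 activity and TGFβ signalling are both linked to growth arrest and to fibrosis.

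The mature sequences from RefSeq (GRCm38.p6 table) are shown because a shared seed groups most members, which differ in other bases. Each runs 5′ to 3′, and capitals mark the seed, bases 2 to 8. For 5 of the 7 members the table held an entry, and miR-34c and miR-449b are named only.
mmu-miR-34a: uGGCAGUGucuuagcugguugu
mmu-miR-34b-5p: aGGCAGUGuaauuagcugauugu
mmu-miR-449a: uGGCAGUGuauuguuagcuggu
mmu-miR-449c: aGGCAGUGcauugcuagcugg
mmu-miR-34b-3p: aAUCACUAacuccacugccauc

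The first 4 share the seed GGCAGUG, and no other of the 1679 mature names in that table carries it. The fifth, miR-34b-3p, comes from the opposite arm of the miR-34b hairpin and has another seed, AUCACUA. Aligned from the 5′ end without gaps, miR-34a and miR-449a were identical at 15 of 22 bases (68.2%), and miR-449a and miR-449c at 18 of 21 (85.7%). The same count for miR-34a and miR-34b-5p was 11 of 22 bases (50%). However, miR-34b-5p is 23 bases long and miR-34a 22, and a count without gaps misses bases that match when shifted. These counts therefore do not rank how alike the members are. In the gene table, Mir34b and Mir34c lie beside each other inside the spans of Btg4 and Hoatz, Mir449a, Mir449b and Mir449c lie together inside Cdc20b, and Mir34a stands apart from both clusters.

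Values are log2 of background-subtracted intensity after scaling each array to its 75th percentile, which lay between 249.5 and 402.4 intensity units. No spot was saturated, and between 74 and 103 mouse miRNAs were well above background on an array. Control 1 stood apart from the other controls. Its median absolute log2 distance over all tested miRNAs was 0.48 to control 2 and 0.52 to control 3, against 0.16 to 0.26 to the TGFβ arrays and 0.06 between controls 2 and 3. Over the 4 tested family members the same distances were 1.45 and 1.24, 0.13 to 0.28, and 0.17. They include miR-449a, which was not well above background on controls 2 and 3. The tests of the members below are given with and without control 1. Control 1 was high in the members themselves, so leaving it out necessarily raises their differences. Member values without control 1 are therefore a description and no independent support. Controls 2 and 3 were unusually close. Over all tested miRNAs the TGFβ arrays lay 0.21 to 0.33 from each other. Between controls 2 and 3, 24.8% of 105 probes differed by over 2 SE of their spots, against 63.8% to 81.9% for other pairs within a group. The SE of a fit without control 1 draws on these 2 close controls. Of the 10 kidney epithelial markers 3 (miR-30a, miR-30c and miR-30d) were well above background on at least 1 array. The others, miR-192, miR-194, miR-200a, miR-200b, miR-200c, miR-141 and miR-429, were not. The summed scaled intensity of the list was 237 to 457 in controls and 192 to 304 with TGFβ. Its tested markers went opposite ways, with TGFβ minus control of -0.68 (SE 0.33) for miR-30a and 0.27 (SE 0.23) for miR-30d. The bright miR-30a read 7.63 log2 units on control 1 against 8.54 and 8.61 on controls 2 and 3. The sum therefore does not describe the markers as a set. The mesenchymal (0 of 5), blood (0 of 6) and endothelial (0 of 2) markers were not well above background either.

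The p53-induced miR-34a was well above background on every array. Controls 1, 2 and 3 read 10.10, 8.65 and 8.83 on the log2 scale, whereas the 3 TGFβ arrays read 10.27, 9.94 and 9.97 in replicate order. Controls 2 and 3 were low, whereas control 1 was as high as the treated arrays and above 2 of them, so the groups overlapped. The means were 9.19 ± 0.79 in control and 10.06 ± 0.18 with TGFβ (SD, n = 3). The difference of 0.87 (SE 0.40) did not pass in limma (adjusted p = 0.391). Without control 1 it was 1.31 (SE 0.15, limma adjusted p = 0.014), a 2.49-fold higher signal with TGFβ.

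The clustered member miR-34c, which shares its primary transcript with miR-34b, had the same shape. Its log2 signal was 6.79, 5.32 and 5.59 on the control arrays and 7.01, 6.58 and 6.90 on the TGFβ arrays, listed from replicate 1. Control 1 fell inside the range of the treated arrays, and controls 2 and 3 lay below all of them. The means were 5.90 ± 0.78 and 6.83 ± 0.22 (SD, n = 3). The difference was 0.93 (SE 0.40, limma adjusted p = 0.391), and 1.37 without control 1 (SE 0.18, limma adjusted p = 0.0157), or 2.58-fold.

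For miR-34b-5p, the cluster partner of miR-34c, the control arrays gave log2 signals of 6.51, 5.06 and 5.22 and the treated arrays 6.46, 6.02 and 6.04, each from replicate 1. Here control 1 was the highest of the 6 arrays. The means were 5.60 ± 0.79 and 6.17 ± 0.25 (SD, n = 3), with a difference of 0.57 (SE 0.41, limma adjusted p = 0.478). Leaving out control 1 gave 1.02 (SE 0.17, limma adjusted p = 0.0157), or 2.03-fold.

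The miR-449 member miR-449a was dim. On the log2 scale, replicates 1, 2 and 3 read 4.14, 3.44 and 3.39 untreated and 4.00, 3.80 and 4.01 with TGFβ. It was well above background on 1 of 3 control and 3 of 3 TGFβ arrays. It therefore entered the test only through the TGFβ group, and control 1 was again the highest array. The means were 3.66 ± 0.42 and 3.93 ± 0.12 (SD, n = 3), a difference of 0.28 (SE 0.24, limma adjusted p = 0.520) that rests on 1 measured control. Without control 1 no control was well above background, so neither a fold nor a call of this member is read from that comparison.

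**Figure D1:**
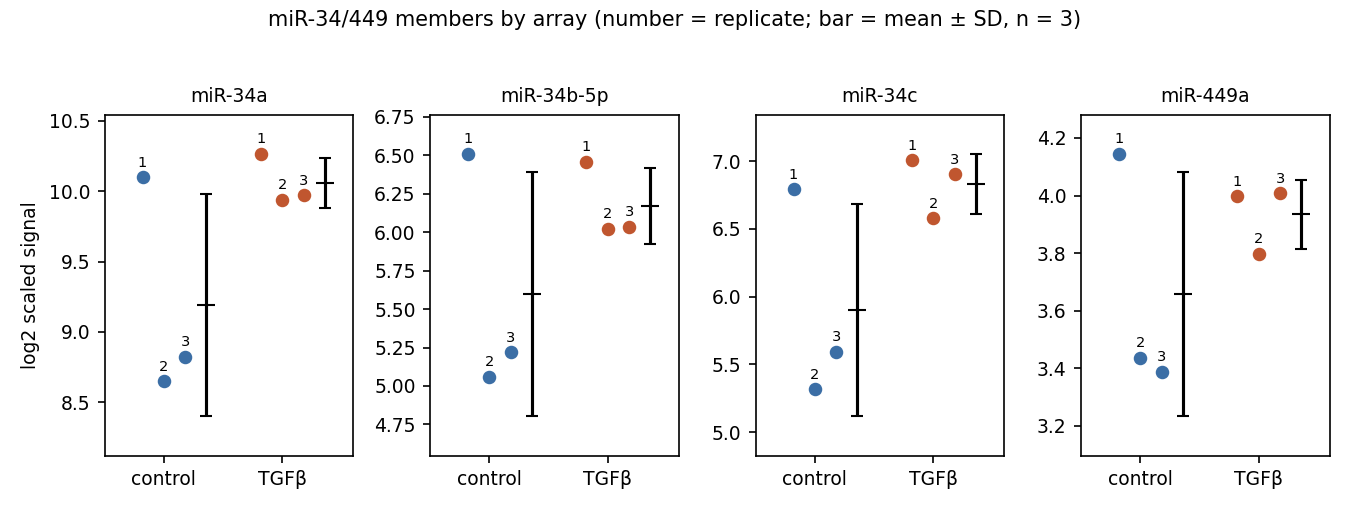
Log2 scaled signal (y axis) of the 4 tested family members on each control and TGFβ array; points are arrays and bars are group means with SD. Control 1 lies with or above the treated arrays for every one of the 4, for example 10.10 against 9.94 to 10.27 for miR-34a, while controls 2 and 3 lie below them.

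The other 3 members were not measurable in these cells. miR-34b-3p had 1 of 120 spots well above background over the 6 arrays, miR-449b 0 of 120 and miR-449c 2 of 120, and none of their probes was well above background on any array. Their highest probe means were 1.53, 3.94 and 6.55 intensity units. The opposite arm of miR-34c, listed on the array as miR-34c*, was also well above background on 0 of 6 arrays. A probe that is not well above background gives only an upper bound, and these values do not show that the miRNAs were absent.

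With all 6 arrays limma called 0 of 4 tested members and 0 of 84 tested miRNAs (0%), of which 8 had an unadjusted p under 0.05, none of them a member. With the replicate number as a block it called 1 miRNA, miR-714, and again no member. The 3 members well above background on all 6 arrays, miR-34a, miR-34b-5p and miR-34c, were each higher with TGFβ, with a median difference of 0.87. Over the 70 miRNAs well above background on all 6 arrays, 24 (34.3%) were higher and the median was -0.13. The median of all 84 tested miRNAs was -0.09, and it moved to -0.22 with quantile normalization and to 0.26 without scaling. Scaling an array by 1 factor shifts all log2 differences equally, so it cannot move a member relative to that median. Only quantile normalization could do so. Relative to the median, miR-34a was at 0.96 as reported and 0.95 with quantile normalization. For miR-34b-5p these values were 0.66 and 0.73, and for miR-34c 1.02 and 1.13. The groups were free of overlap with TGFβ higher for 0 of 4 members, beside 7 of 84 tested miRNAs (8.33%).

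Without control 1, the test covered 85 miRNAs and called 11 of them higher (12.9%) and 20 lower. Among the 70 miRNAs well above background on all 6 arrays it called 6 higher (8.57%), and these included miR-34a, miR-34b-5p and miR-34c, 3 of 3 members so measured. The call of miR-449a is set aside, since that miRNA entered the test only through the TGFβ arrays. The lowest TGFβ array then exceeded the higher of controls 2 and 3 by 1.11 for miR-34a, 0.80 for miR-34b-5p and 0.99 for miR-34c. Groups free of overlap were common in this comparison. Of the 85 miRNAs, 23 had all TGFβ arrays above both controls and 36 had all of them below. Weighting the arrays by their fit in limma, in place of leaving one out, gave control 1 a weight of 0.144 and the others 0.516 to 3.71. That fit called 18 of 84 miRNAs higher (21.4%). Among the 70 it called 10 (14.3%), and again 3 of 3 members. Leaving out any other single array called no member. The calls thus rest on setting aside or weighting down an array that was seen to stand apart, also in the members' own values. With the 6 arrays as labelled no member passed the threshold.

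Taken by replicate number, which the labels do not say pairs arrays, TGFβ was set against control for replicates 1, 2 and 3. TGFβ minus control was 0.17, 1.29 and 1.14 for miR-34a and 0.22, 1.26 and 1.31 for miR-34c. For miR-34b-5p it was -0.05, 0.96 and 0.82. For miR-449a, not well above background on controls 2 and 3, it was -0.15, 0.36 and 0.62. With the number as a block in limma the difference was 0.87 for miR-34a (SE 0.29, adjusted p = 0.177) and 0.93 for miR-34c (SE 0.29, adjusted p = 0.157).

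Control 1 shared a slide column with TGFβ 2, and control 2 with TGFβ 3. Within the first column the treated array differed from the control by -0.16 for miR-34a, -0.49 for miR-34b-5p, -0.21 for miR-34c and -0.35 for miR-449a. Within the second it was 1.32, 0.97, 1.59 and 0.57 in the same order. The columns gave opposite signs for all 4 members, 1 array against 1. Both arrays of the first column also had the widest scatter between repeat spots, a median coefficient of variation of 15.6% and 14.8% against 6.55% to 7.95% elsewhere. The labelling spike-in of control 1 read 1.82 log10 units against 2.09 to 2.14 on the other 5 arrays. Feature Extraction marked this signal as out of its range on all 6 arrays, not on control 1 alone. With the slide column as a block, limma gave smaller differences, 0.58 for miR-34a, 0.24 for miR-34b-5p, 0.69 for miR-34c and 0.11 for miR-449a (adjusted p = 0.941 for each), and called 0 of 84 miRNAs. Only the first and second columns held both groups, so these values average the within-column differences above. Control 3 and TGFβ 1, each alone in a column, added nothing to them. Blocking by slide row instead gave 1.07, 0.86, 1.11 and 0.34 in that order. The second row held only TGFβ 2 and TGFβ 3, so these values set TGFβ 1 alone against the controls. Neither block is thus an adjusted comparison of all 6 arrays. The part of spot scatter and labelling was not tested.

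The array carries 2 probes for each tested member, each printed as 10 spots, and the pattern was checked at that level. On the brighter miR-34a probe the unscaled mean intensity of replicates 1, 2 and 3 was 2210, 582 and 609 untreated and 2417, 2118 and 1852 with TGFβ. On the brighter miR-34c probe it was 222, 61.9 and 64.8 in controls and 259, 214 and 226 with TGFβ. On that of miR-34b-5p it was 172, 43.5 and 44.7 in controls and 158, 127 and 112 with TGFβ. On all 3 probes control 1 was thus within or above the treated range already before scaling.

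Single spots separated in the same way. Of the spots kept after outlier removal, 29 of 29 TGFβ spots for miR-34a, 29 of 29 for miR-34b-5p and 28 of 28 for miR-34c were brighter after scaling than every spot of controls 2 and 3. So were 9 of 9, 9 of 9 and 8 of 8 spots of control 1. For miR-449a the spots mixed, with 11 of 30 TGFβ spots above every spot of controls 2 and 3. Spots are repeat readings of 1 RNA sample and count as no replicates, and spots of probes outside the family were not counted in this way.

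**Figure D2:**
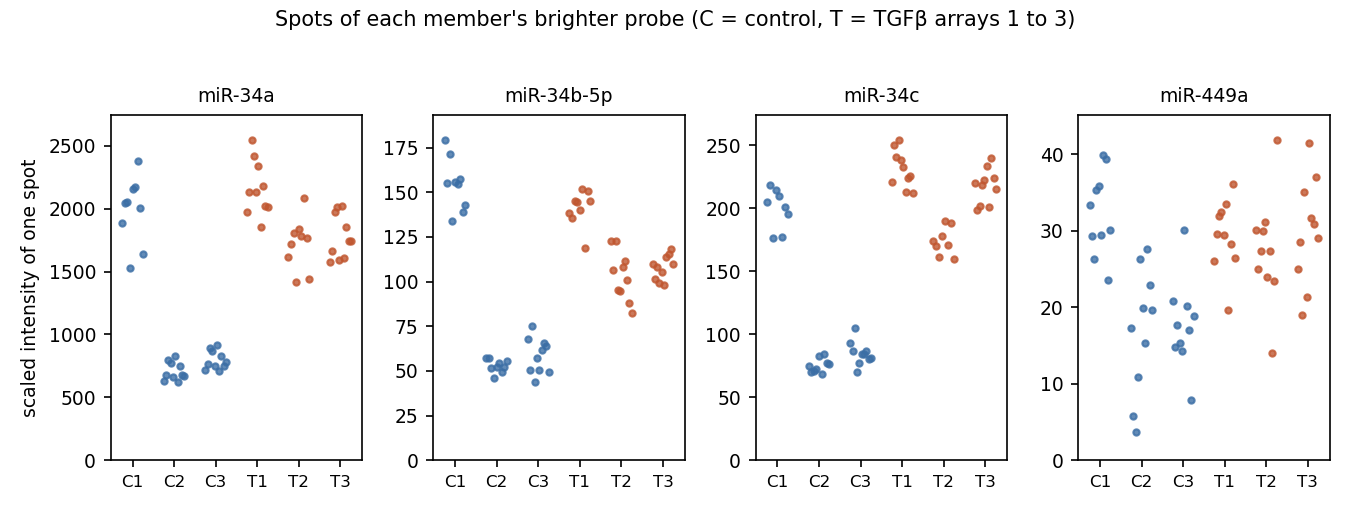
Scaled intensity (y axis, from 0) of each spot of the brighter probe of the 4 tested members on controls 1 to 3 (C1 to C3) and TGFβ 1 to 3 (T1 to T3); each point is a spot. For miR-34a all TGFβ and control 1 spots lie above 1420 and all spots of controls 2 and 3 at or below 914, whereas those of miR-449a overlap.

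Both probes of miR-34a were well above background on all 6 arrays, and their differences were 0.85 on the brighter and 0.97 on the dimmer, or 1.32 and 1.31 without control 1. The dimmer probes of miR-34b-5p and miR-34c were well above background on 4 and 2 arrays and on neither control 2 nor control 3, so only the brighter probes measured these members throughout. Those gave 0.57 for miR-34b-5p and 0.93 for miR-34c, or 1.06 and 1.37 without control 1. The dimmer probe of miR-449a was well above background on no array. Whether a probe of 1 member also binds the RNA of another was not tested.

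Because the members share a seed and 2 of them a transcript, the question of whether they moved by equal amounts was asked within arrays, where scaling drops out. The difference between miR-34a and miR-34b-5p on 1 array was 3.59, 3.59 and 3.61 log2 units for the control replicates in order and 3.81, 3.92 and 3.93 for the treated ones. The 3 controls lay within 0.02 of each other, control 1 included, and below all treated arrays. The offset itself compares different probes and is no ratio of amounts, and its mean was 0.29 higher with TGFβ (exact two-sided permutation p = 0.1, the smallest that 3 against 3 arrays allow, 0.15 adjusted over 6 pairs).

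The pair miR-34b-5p and miR-34c, made from 1 primary transcript, was compared next. Their within-array difference was -0.28, -0.26 and -0.37 on controls and -0.55, -0.56 and -0.87 on treated arrays, again in replicate order. Every treated array was below every control, with a change of -0.35 (exact two-sided permutation p = 0.1, 0.15 adjusted over 6 pairs). For miR-34a and miR-34c it was 3.31, 3.33 and 3.23 in controls and 3.26, 3.36 and 3.07 with TGFβ. These overlapped, with a change of -0.06 (exact two-sided permutation p = 0.7 before and after adjustment), smaller than the SD of 0.15 among treated arrays, and -0.05 without control 1, still with overlap.

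Of the 3 pairs among miR-34a, miR-34b-5p and miR-34c, 2 had groups free of overlap, beside 317 of 2415 pairs (13.1%) of the 70 miRNAs well above background on all 6 arrays, and pairs that share a miRNA are not independent. The 3 pairs with the dim miR-449a changed by 0.59 for miR-34a, 0.30 for miR-34b-5p and 0.65 for miR-34c (exact two-sided permutation p = 0.1, 0.3 and 0.1, or 0.15, 0.36 and 0.15 adjusted over 6 pairs). As controls 2 and 3 did not measure miR-449a, these are given for completeness only. No pair could pass a threshold of 0.05 at this number of arrays.

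Without control 1 the changes of 0.29 and -0.35 were 0.29 and -0.34. Feature Extraction's own total signal per miRNA moved the first to 0.06 with overlapping groups, and normexp moved it to 0.71. The same settings gave -0.22 and -0.24 for the second, with groups free of overlap in both. Of the probe combinations in which every array was well above background, miR-34a against miR-34b-5p changed by 0.28 and 0.39 and miR-34b-5p against miR-34c by -0.35, each with groups free of overlap.

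**Figure D3:**
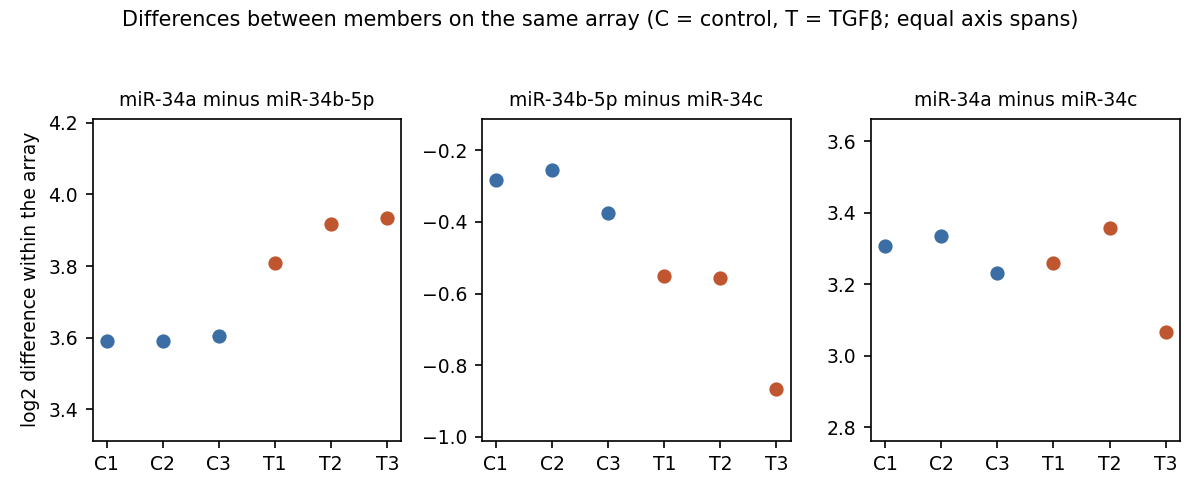
Within-array log2 difference (y axis) between members on each control and TGFβ array; each point is an array. For miR-34a minus miR-34b-5p the controls lie at 3.59 to 3.61 and the treated arrays at 3.81 to 3.93, and for miR-34a minus miR-34c the groups overlap.

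Profiles over the 6 arrays, each centred on its mean, were compared without a test. The root mean square distance from miR-34a was 0.10 log2 units for miR-34c, 0.15 for miR-34b-5p and 0.38 for miR-449a, beside a median of 0.77 over 80 tested miRNAs outside the family. Without control 1 these were 0.10, 0.15, 0.41 and 0.78. The dim miR-449a ranked 10 among tested miRNAs by closeness to miR-34a, behind the non-members named next. Those most like miR-34a were miR-125b-5p (0.24), miR-1906 (0.26), miR-20a (0.28), miR-20b (0.29) and miR-206 (0.30). Those most like miR-34c were miR-1906 (0.27), miR-20b (0.30), miR-125b-5p (0.30), miR-20a (0.32) and miR-181b (0.35). The arrays are shared by all profiles, so a departure of 1 array enters every distance.

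Other miRNAs tied to p53 are given by their counts and medians. Of 12 that p53 is reported to raise or to help process, 8 were well above background on no array, among them miR-192, miR-194 and miR-215, which repress MDM2, and miR-143 and miR-145. The 4 that were tested had a median difference of -0.20, with 1 higher, 3 lower and none called in limma. They were miR-15a (-0.40, SE 0.20) and miR-16 (-0.08, SE 0.18), partners in 1 cluster that targets BCL2, miR-107 (-0.32, SE 0.20) and miR-22 (0.01, SE 0.18). Without control 1 all 4 were below 0 and 2 fell, miR-15a by 0.57 (limma adjusted p = 0.0494) and miR-107 by 0.51 (limma adjusted p = 0.024). In that comparison 20 of 85 tested miRNAs were called lower (23.5%) and only 37 (43.5%) were above 0, which is the background for these counts.

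Of 6 miRNAs reported to repress Trp53, the gene of p53, 3 were tested and the other 3 were well above background on 0 arrays. Their median difference was 0.34, with none called with 6 arrays. Of the 3, miR-30d was well above background on only 4 of the 6 arrays. It therefore entered the test through 1 group alone, and its direction is not counted. Both miR-25 and miR-125b-5p, well above background on all 6 arrays, were higher with TGFβ. Over the 70 miRNAs so measured 24 (34.3%) were higher, and over all 84 tested 35 (41.7%). miR-125b-5p differed by 1.00 (SE 0.32), miR-25 by 0.34 (SE 0.13) and miR-30d by 0.27 (SE 0.23), each with a limma adjusted p of 0.391 or more. Without control 1 only miR-125b-5p of these passed, with a difference of 1.32 (SE 0.18, limma adjusted p = 0.0157). In that comparison 11 of 85 tested miRNAs were called higher (12.9%). p53 protein and its messenger targets were not analysed here.

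**Figure D4:**
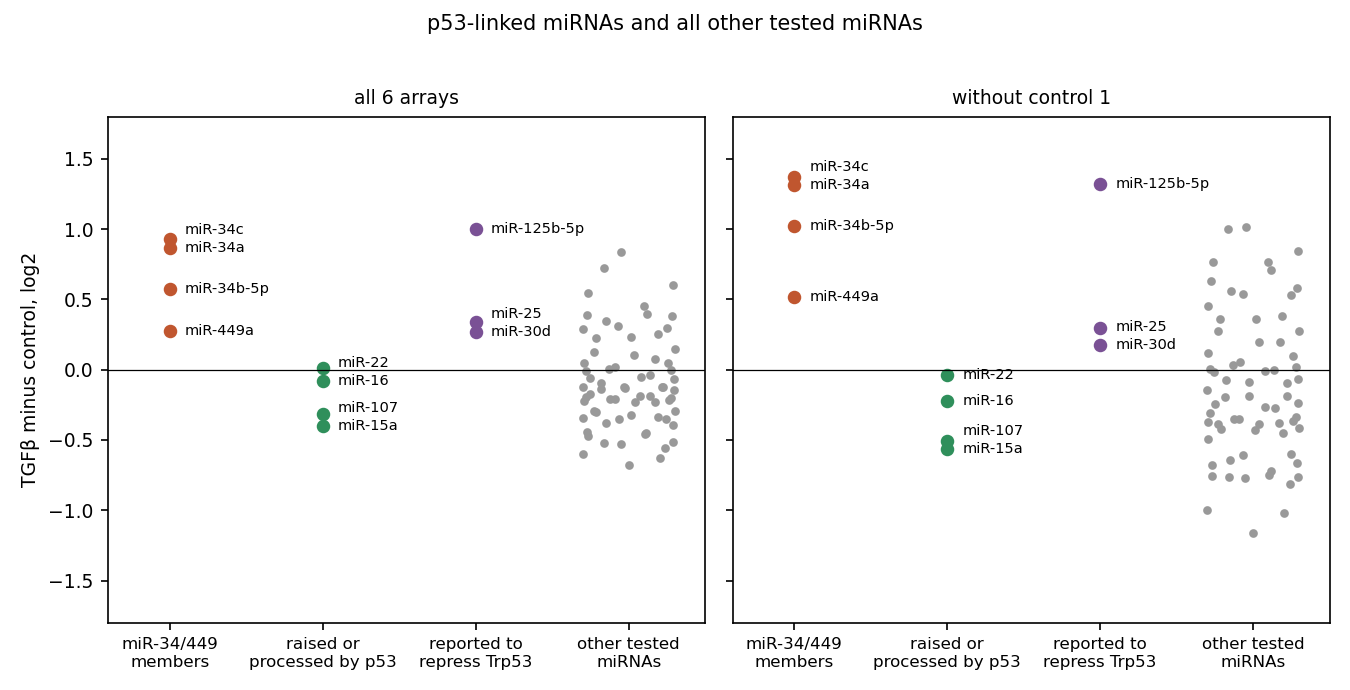
TGFβ minus control log2 difference (y axis) of the tested family members, the other p53-linked lists and all other tested miRNAs, with all 6 arrays (left) and without control 1 (right); each point is a miRNA, the sideways spread of the last column carries no meaning, and 4 of 84 miRNAs lie outside the plotted range in each panel. The members lie at 0.28 to 0.93 on the left, miR-34a, miR-34b-5p and miR-34c lie at 1.02 to 1.37 on the right, where miR-449a is drawn against controls not well above background, and the 4 miRNAs raised or processed by p53 lie at or below 0.01.

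The size of each member's difference varied with the arrays and settings used. Over 25 alternatives miR-34a ran from -0.16 to 1.32 and miR-34c from -0.21 to 1.59. The low end of both came from the first slide column alone, and their other values were all above 0. Normexp background correction, which adds an offset of 50 and so shrinks dim signals, gave 0.79 for miR-34a and 0.33 for miR-34c, with 0.08 for miR-34b-5p and -0.18 for miR-449a.

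**Figure D5:**
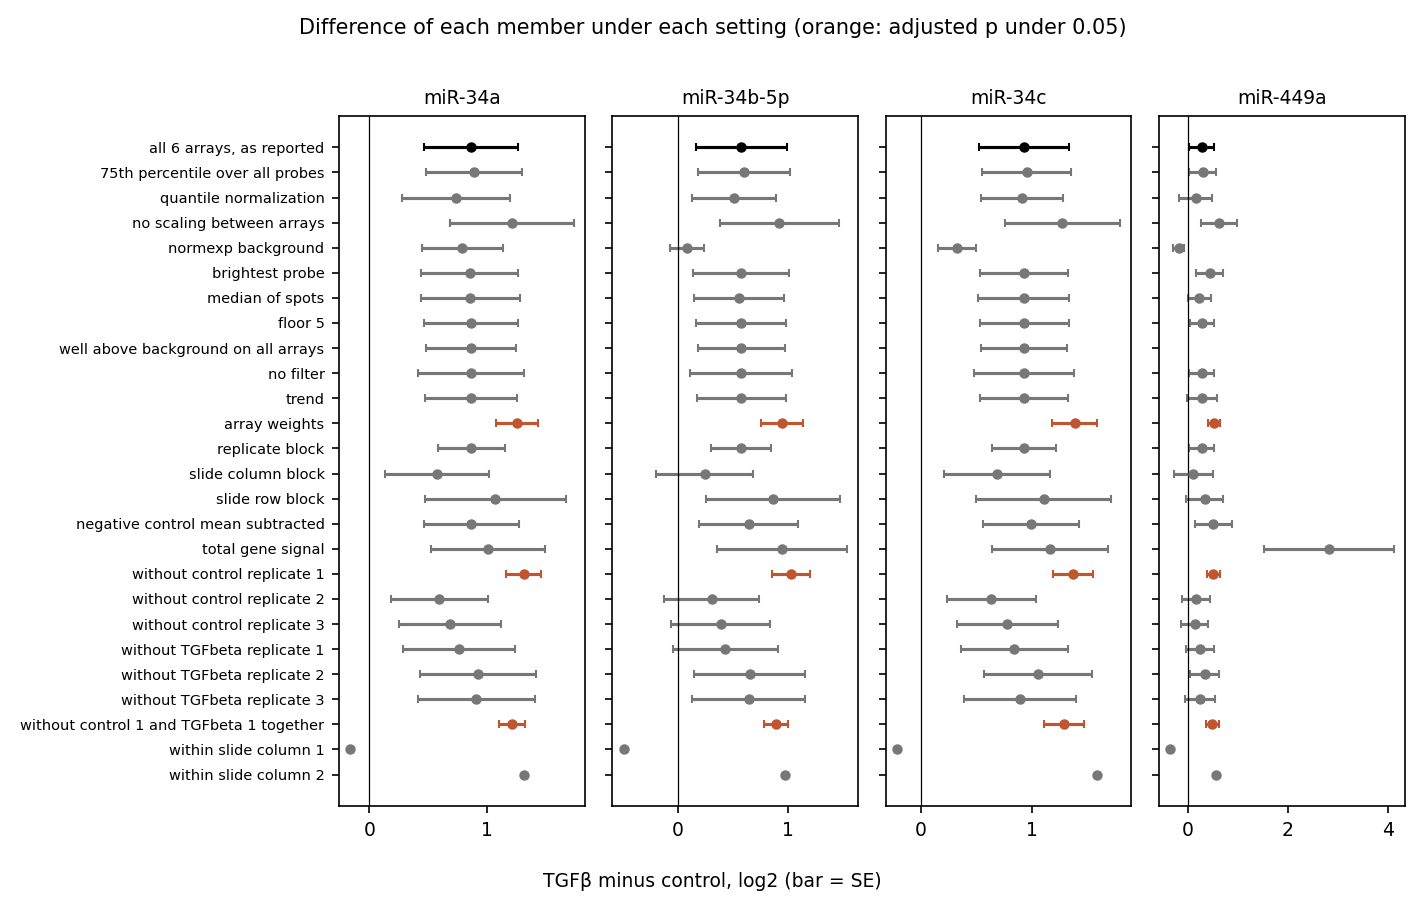
TGFβ minus control log2 difference (x axis, with a range of its own in each panel) of the 4 tested members under each processing alternative (y axis); each point is 1 setting, bars are SE, black marks all 6 arrays as reported and orange a limma adjusted p under 0.05. Apart from the first slide column the values of miR-34a and miR-34c lie above 0, while miR-449a reaches -0.18 with normexp, and its points without control 1 are against controls not well above background.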

How the data were processed

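The authors deposited one scanner file per array, holding, per the file headers, a fluorescence intensity per spot with background already subtracted and with no scaling across arrays. The 0 or 1 flags (other columns) for outlier, saturated and well-above-background spots are also deposited there, per the file headers. Headers give Agilent Feature Extraction 10.7.3.1 and the submitters' processing notes 10.1.1. Spots of a probe were averaged without outlier spots, then the probes of a miRNA. Each array was scaled to its 75th percentile (taken from the 105 probes that cleared background on all 6), floored at 1 and put on a log2 scale. Being well above background required a share of 0.5 of a probe's spots, and testing a miRNA required 1 such probe on every array of either group. Groups came from the sample titles. Control and TGFβ arrays were contrasted in R 4.3.3 by limma 3.58.1 (two-sided, Benjamini-Hochberg over all tested miRNAs, threshold 0.05), which was tested on simulated data. The simulated arrays had equal scatter and none stood apart, so they do not show how the fit behaves with an array like control 1. Member pairs were compared by exact permutation tests. The number of arrays limits the precision.

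Named were all 7 members, tested or detected miRNAs of the p53 lists, and the 5 nearest profiles to miR-34a and to miR-34c, beside undetected list members and miR-714, chosen after their values were seen. The members and lists were chosen with earlier results of these data known. Deviations of arrays with equal replicate numbers correlated at 0.38, 0.37 and 0.52 (control 2 with TGFβ 3, in the same slide column, also at 0.38), so the number was also used as a block, although the labels do not say that it marks a shared batch. Array names follow the old design, and its genome build differs from that of the RefSeq table, so no coordinates are given.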

Additional observations from a re-analysis of the deposited data

How the results depend on the processing

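The 6 arrays limit precision, and control 1 decides every call of a member. Of 84 tested miRNAs limma called 45 with array weights, 1 with the replicate block and 0 when blocked by slide column. It called 35 of 85 without control 1 and TGFβ 1 together, an alternative chosen after seeing the data. Leaving out each array in turn gave 0 to 31 calls among 84 to 86 tested, and 31 came without control 1. For the members the counts were 4 with array weights, 4 without control 1 and TGFβ 1, and 0 to 4 leaving out each array in turn, where each 4 includes miR-449a, not measured on controls 2 and 3. The replicate block changed no member's call, with limma adjusted p-values of 0.177 for miR-34a, 0.385 for miR-34b-5p, 0.157 for miR-34c and 0.576 for miR-449a.

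Signs reversed in the first slide column (-0.16 for miR-34a, -0.49 for miR-34b-5p, -0.21 for miR-34c and -0.35 for miR-449a) and for miR-449a with normexp (-0.18). The change of miR-34a against miR-34c, -0.06, became 0.46 with normexp and ran from -0.129 to 0.0171 leaving out each array in turn, with 0.0171 without TGFβ 3. With Feature Extraction's total signal per miRNA, added after seeing the data, the change against the dim miR-449a became -1.81 for miR-34a, -1.87 for miR-34b-5p and -1.65 for miR-34c, where the difference of miR-449a itself was 2.81. The cause was not tested. Over all alternatives the limma adjusted p ran from 0.00472 to 0.976 for miR-34a, 0.00841 to 0.976 for miR-34b-5p, 0.00594 to 0.976 for miR-34c and 0.012 to 0.976 for miR-449a. Normexp used the median spot signal.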
